A study of Mus musculus with 6 samples.

Results

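The genes described here are 10 transcription factors of the naive pluripotency network, which keeps mouse embryonic stem cells in the state of the preimplantation epiblast. They were chosen by name (Zfp42, Nanog, Tbx3, Esrrb, Klf2, Klf4, Klf5, Tfcp2l1, Prdm14 and Nr5a2), and all 10 have a row among the 17110 genes of the authors' deposited table. All 10 gene identifiers also occur among the 17231 of a counts table, whose values were not used. The study sorted mouse embryonic stem cells of the line that the labels call TG2A by a fluorescent reporter, giving a DsRed2+ group and a DsRed2- group with 3 samples each. In both groups the genotype is MERVL::Fluorescent protein, a reporter driven by the endogenous retrovirus MERVL, which is active in two-cell embryos and in a small fraction of cultured stem cells. Cells of both groups were grown in medium with serum and LIF (leukemia inhibitory factor), and per the labels the replicates were collected on different days. The labels do not say whether the reporter line is 1 clone.

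Polyadenylated RNA was sequenced in bulk, and 1 comparison between groups was deposited. The authors' deposited table gives for each gene a mean normalized count over all libraries, a log2 fold change with its standard error (SE), and a Wald test with a p-value adjusted over all genes. It leaves the compared groups unnamed, and they are taken to be the sorted groups because the labels list no others. It also does not say which group is the numerator. A positive fold change is therefore called higher in the numerator group, which may be either sorted population, and a negative one lower. Values per library and the depth of each library were not analysed here, so whether the groups overlap for any gene was not analysed either. In bulk RNA, fewer cells that express a gene and less RNA per cell cannot be told apart.

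In serum and LIF, the naive network is fed by LIF through Stat3. Tcf7l1 represses several of its genes, and FGF and ERK signalling acts against the network. Klf4, Tfcp2l1, Tbx3 and Esrrb are known entry points for these signals, Nanog and Prdm14 shield the state from differentiation cues, and Zfp42 (Rex1) is the classical marker of naive cells. Many of these factors are expressed unevenly from cell to cell in serum cultures. As background to the cell type, the authors' deposited table lists the core factor Pou5f1 at a mean of 32810 normalized counts and Sox2 at 10086.

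In the authors' deposited table, 9 of the 10 naive factors had an adjusted p-value under 0.05 (DESeq2), all with a positive fold change, where 30.5% of all genes were called and 14.6% were called positive. Klf4 was the 1 factor that did not pass. The authors' own call of up, which also asks for a log2 fold change over 0.5, covered the same 9 factors, against 9.4% of all genes in the authors' deposited table. The factors were more abundant than most genes, with a median of 4492 mean normalized counts against 394 over all genes. Their calls were not compared with those of genes of like abundance. The median log2 fold change of the 10 factors in the authors' deposited table was 0.75, beside 0.0097 over all genes. Without Tbx3 the median of the other 9 was 0.73. The direction of this group was already known from earlier results on these data, so its count is a description and no independent evidence.

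Tbx3, a T-box factor of the LIF-responsive part of the network, stood apart from the others. Its mean was 1260 normalized counts and its log2 fold change 2.39 with an SE of 0.18 in the authors' deposited table (DESeq2 adjusted p-value 3.63e-39). That is a 5.25-fold higher level in the numerator group, with a 95% interval computed from the deposited SE of 4.12 to 6.68. The interval of Tbx3 on the log2 scale, 2.04 to 2.74, lay above those of all other 9 factors, the highest of which ended at 1.28.

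Zfp42, a zinc-finger gene whose loss marks exit from the naive state, came next. In the authors' deposited table it had a mean of 16185 normalized counts and a log2 fold change of 1.10 with an SE of 0.092 (DESeq2 adjusted p-value 1.6e-30). This corresponds to 2.14-fold, with an interval of 1.89 to 2.42. Tbx3 and Zfp42 were the 2 factors whose fold change reached 1 on the log2 scale, against 5.59% of all genes called positive with a fold change over 1. Processed pseudogenes of Zfp42 and Nanog and antisense genes beside Tbx3 are annotated, and how reads shared with them were counted is not given in the sources used here.

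Esrrb and Nr5a2 are orphan nuclear receptors that bind closely related DNA sites and can stand in for other factors of the network. Their log2 fold changes in the authors' deposited table were close to each other, 0.91 with an SE of 0.13 for Esrrb and 0.89 with an SE of 0.12 for Nr5a2 (DESeq2 adjusted p-values 1.11e-11 and 2.51e-12). The corresponding folds were 1.88 and 1.85. Their abundance was not alike, since the authors' deposited table gives Esrrb a mean of 16352 normalized counts and Nr5a2 one of 2075.

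Nanog, the homeodomain factor that allows self-renewal without LIF when overexpressed, had a mean of 10034 normalized counts and a log2 fold change of 0.73 with an SE of 0.15 in the authors' deposited table (DESeq2 adjusted p-value 5.75e-06). Prdm14, which represses FGF receptor signalling and DNA methyltransferases, was the least abundant factor, with a mean of 428.3 normalized counts. Its log2 fold change in the authors' deposited table was 0.77 with an SE of 0.24 (DESeq2 adjusted p-value 0.00578). The interval of Prdm14, 0.30 to 1.24, was the widest of the 10 and covered the values of every other factor except Tbx3. Tfcp2l1, a grainyhead-family factor induced by Stat3, had a mean of 5821 normalized counts and a log2 fold change of 0.62 with an SE of 0.17 in the authors' deposited table (DESeq2 adjusted p-value 0.00149).

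The 3 Kruppel-like factors, which overlap in their target sites and can replace one another in self-renewal, were among the 4 factors with the smallest fold changes, together with Tfcp2l1. In the authors' deposited table, the log2 fold change of Klf2 was 0.67 with an SE of 0.14, that of Klf5 was 0.60 with an SE of 0.071, and that of Klf4 was 0.32 with an SE of 0.17. The authors' deposited table gives DESeq2 adjusted p-values of 1.57e-05 for Klf2, 1.1e-15 for Klf5 and 0.159 for Klf4. Klf4 was not low in abundance, with a mean of 2822 normalized counts against 3773 for Klf2 and 5212 for Klf5 in the authors' deposited table. Its interval ran from -0.02 to 0.66 on the log2 scale. This interval includes 0 and the fold change of Klf5, ends just below that of Klf2, and overlaps the intervals of both. The difference between the Klf genes was not tested.

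**Figure D1:**
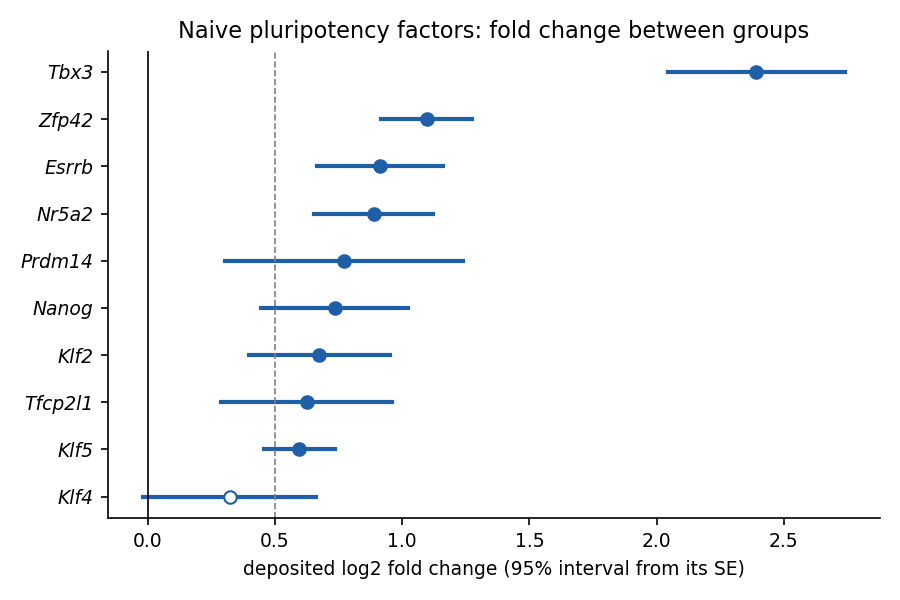
Log2 fold change of each naive factor in the authors' deposited table (points) with the 95% interval computed from its SE (lines), ordered by size. Filled points have an adjusted p-value under 0.05, the solid line marks 0 and the dashed line the authors' limit of 0.5. Tbx3 lies above all others at 2.39, and Klf4 at 0.32 is the open point, with an interval that crosses 0.

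The order of the factors by fold change was not their order by abundance. To compare levels between genes, the mean normalized count was divided by the length of the longest transcript in GENCODE M21. On this scale of counts per kilobase, Zfp42 had the highest level at 8811, followed by Nanog at 4538, Esrrb at 3803, Klf2 at 2043 and Klf5 at 1555. The lower levels were those of Klf4 at 932, Tfcp2l1 at 628, Nr5a2 at 438, Tbx3 at 253 and Prdm14 at 167 counts per kilobase. Tbx3, with the largest fold change, thus had the second lowest level, and Zfp42, with the next largest, had the highest. The spread of these levels over samples was not analysed here, so neighbours in this order may not differ.

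**Figure D2:**
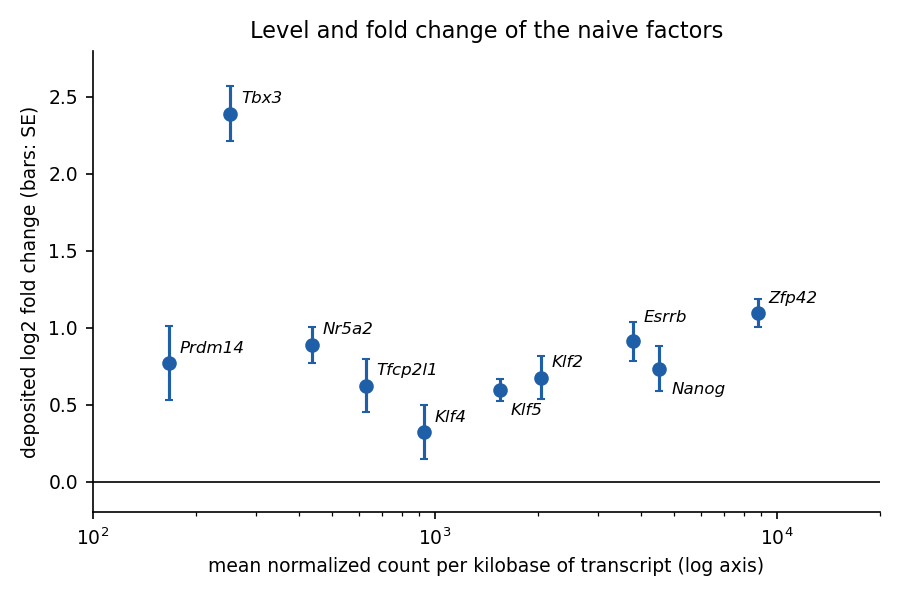
Mean normalized count per kilobase of transcript (horizontal, log axis) against the log2 fold change in the authors' deposited table (vertical, bars are the SE) for the 10 naive factors. Tbx3 combines a low level, 253, with a fold change of 2.39, and Zfp42 combines the highest level, 8811, with 1.10.

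The precision of the factors differed as well. In the authors' deposited table, the SE of 8 of the 10 factors was larger than the median SE of the 500 genes nearest to each in mean count. Tfcp2l1 had 1.66 times, Klf4 1.61 times and Tbx3 1.50 times the median SE of such genes. For Klf4 the median SE of like genes in the authors' deposited table was 0.11, against its own 0.17. Klf5 was the opposite case, with an SE 0.68 times the median of like genes, of which 2% had a smaller one, and Zfp42 was at 0.90 times. What made the SE of a gene large was not tested.

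**Figure D3:**
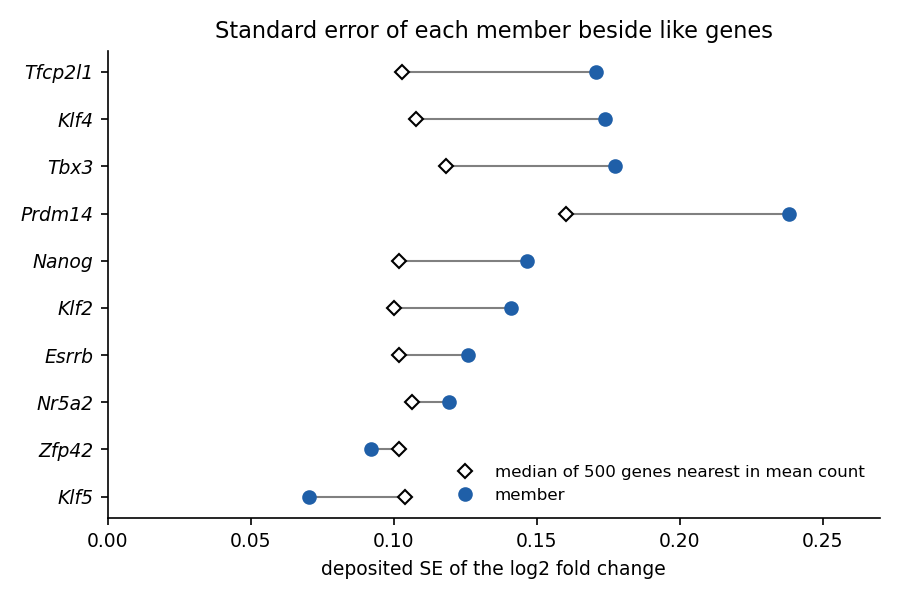
SE of the log2 fold change of each factor in the authors' deposited table (filled circles) and the median SE of the 500 genes nearest in mean normalized count (open diamonds). For 8 factors the circle lies to the right of the diamond, and Zfp42 and Klf5 lie to the left.

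A stricter question is whether a factor changed by more than 0.5 on the log2 scale, the authors' limit. Tested from the deposited fold change and SE, with adjustment over all genes, 4 factors passed (Tbx3, Zfp42, Esrrb and Nr5a2), against 4.34% of all genes that passed it as positive. The other 5 called factors had fold changes above this limit and did not pass this test.

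The regions just before the start sites of 3 called factors are shown because they hold a match to an octamer or Kruppel-like motif, and the network is known to act on its own promoters. RefSeq (GRCm38.p6) gave windows of 300 bases, 250 before to 50 after a start, for 7 of the 10 factors, and Tbx3, Klf5 and Prdm14 had none. The 200 bases before the start (for Nanog, the more upstream of its 2 starts) are printed 5′ to 3′ on the gene's strand. They come from chr6:122707289-122707488 (plus strand) for Nanog, chr8:43307010-43307209 (minus strand) for Zfp42 and chr1:118627745-118627944 (plus strand) for Tfcp2l1. Capitals mark the octamer bound by Pou5f1 in Zfp42, its first 7 bases in Nanog (both on the opposite strand), and a Kruppel-like factor motif on the opposite strand in Tfcp2l1.
Nanog: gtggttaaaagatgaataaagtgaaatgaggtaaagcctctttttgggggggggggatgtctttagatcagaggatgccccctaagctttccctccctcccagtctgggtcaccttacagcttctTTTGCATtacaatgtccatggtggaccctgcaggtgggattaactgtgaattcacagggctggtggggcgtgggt
Zfp42: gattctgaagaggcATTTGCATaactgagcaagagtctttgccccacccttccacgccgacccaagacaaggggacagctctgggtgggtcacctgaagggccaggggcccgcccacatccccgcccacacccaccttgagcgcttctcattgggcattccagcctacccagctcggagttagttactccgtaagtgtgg
Tfcp2l1: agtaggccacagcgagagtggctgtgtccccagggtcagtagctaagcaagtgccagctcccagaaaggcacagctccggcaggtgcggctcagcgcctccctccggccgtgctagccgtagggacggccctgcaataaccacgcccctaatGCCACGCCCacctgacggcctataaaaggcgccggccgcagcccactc

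Motifs were searched on both strands of all windows, and a match is a description of the letters and not of binding. The octamer ATGCAAAT occurred in Zfp42 alone among the 7 factors, from 186 to 179 bases before the start. That is 1 of the 10 windows of these factors, against 1.74% of all 32851 windows. The first 7 bases of the octamer, ATGCAAA, a form chosen after the sequences had been seen, occurred in Zfp42 and in Nanog. In Nanog they lie from 75 to 69 bases before 1 RefSeq start and from 151 to 145 before the other. They were in 3 of the 10 windows, with both windows of Nanog sharing 1 site, against 4.63% of all windows. In the Nanog sequence the capitals are followed by tacaatg, the Sox part of the well-known composite Oct and Sox element of this promoter. The Kruppel-like motif GGGNGTGGC was found in Tfcp2l1, from 48 to 40 bases before the start. That is 1 of the 10 windows, against 5.76% of all windows. The repeat bound by Tfcp2l1, CCNG followed after 6 bases by CCNG, was found in Esrrb, Klf2 and Klf4. These were 3 of the 10 windows, a share near the 29.5% of all windows. The motifs TCAAGGTCA (Esrrb and Nr5a2), TTCCNGGAA (Stat3), CTTTGAT (Tcf factors) and AAGATGGC (Yy1 and Zfp42) were in 0 of the 10 windows of these factors, against 0.423%, 1.15%, 3.73% and 2.75% of all windows. The window of Klf4 held 40 CpG dinucleotides and that of Klf2 held 32, while both windows of Nanog held 4, beside a median of 7 over all windows.

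Other markers and targets of the naive state moved in the direction of the factors. Of 15 such genes in the authors' deposited table, 12 were called positive and 1 negative, with a median log2 fold change of 1.04. Beside this list and every list below, 14.6% of all genes were called positive and 15.9% negative. These lists were chosen with earlier results of these data known. The strongest by its statistic was Jam2, a junctional adhesion molecule, at 1.89 with an SE of 0.11 in the authors' deposited table (DESeq2 adjusted p-value 5.41e-65). Spp1, the secreted protein osteopontin, stood at 1.30 with an SE of 0.094 in the authors' deposited table (DESeq2 adjusted p-value 8.39e-41). The exception was Dppa3 (Stella), a maternal factor that is linked to DNA methylation and is used as a reporter of naive cells. It was called negative there, and the authors' deposited table gives it -0.76 with an SE of 0.19 (DESeq2 adjusted p-value 0.000283). Cdh1 and Gbx2 did not pass, at 0.11 with an SE of 0.10 and 0.30 with an SE of 0.27 in the authors' deposited table.

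General markers and regulators of embryonic stem cells changed less in size. In the authors' deposited table, 5 of 10 were called positive (Alpl, Pou5f1, Sall4, Trim28 and Zfp281), 0 were called negative, and the median log2 fold change was 0.33. Alpl, the alkaline phosphatase of stem cells, had 0.67 with an SE of 0.14, and the corepressor Trim28 had 0.65 with an SE of 0.13 in the authors' deposited table. Pou5f1 stood at 0.26 with an SE of 0.10 (DESeq2 adjusted p-value 0.0364) and Sox2 at 0.14 with an SE of 0.14 (adjusted p-value 0.491) in the authors' deposited table. With the ribosomal protein genes set to a median of 0, 3 of these genes kept their call (Alpl, Sall4 and Trim28), while all 9 called naive factors kept theirs.

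The genes of the signalling pathways that act on the factors, which include targets and feedback genes of these pathways, did not move as a block. Of 9 genes of the LIF arm in the authors' deposited table, 4 were called positive and 3 negative. The receptor Lifr stood at 0.79 with an SE of 0.095, and Stat3 at 0.43 with an SE of 0.095 in the authors' deposited table. The kinase gene Tyk2 at 0.56 and the shared receptor subunit Il6st at 0.34 were the other positive calls in the authors' deposited table. Junb, an early target of the pathway, stood at -0.81 with an SE of 0.12, and the kinases Jak2 and Jak1 at -1.64 and -0.29 in the authors' deposited table. At an adjusted p-value under 0.01, Il6st and Jak1 lost their calls. After centring on the ribosomal protein genes, Il6st lost its call and Pim1 gained a negative one. Socs3, the feedback inhibitor that reports Stat3 activity, had -0.12 with an SE of 0.23 in the authors' deposited table, which is within its error of 0.

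Of the 8 genes of the Wnt and Tcf7l1 arm, 1 was called in the authors' deposited table, the kinase gene Gsk3b at -0.42 with an SE of 0.091. Tcf7l1, the repressor of several of the factors, had 0.17 with an SE of 0.10 in the authors' deposited table (DESeq2 adjusted p-value 0.23). In the FGF and ERK arm, 3 of 9 genes were called negative and 2 positive in the authors' deposited table. The ERK phosphatase and target Dusp6 stood at -1.02 with an SE of 0.14, and the receptors Fgfr2 and Fgfr1 at -0.66 and -0.31 in the authors' deposited table. The positive genes were the ETS factor Etv5 at 0.47 with an SE of 0.097 and Mapk3 at 0.41 with an SE of 0.094 in the authors' deposited table. Of 9 factors known from screens for exit from the naive state, 3 were called, all positive, in the authors' deposited table: Rbpj at 0.72, Jarid2 at 0.47 and Tsc2 at 0.25. Over all genes, 30.5% were called and 14.6% were called positive. Tsc2 lost its call both at an adjusted p-value under 0.01 and after centring on the ribosomal protein genes.

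Formative and primed epiblast genes, which replace the naive programme when cells leave it, lay mostly on the other side of 0. In the authors' deposited table, 8 of 11 were called negative, against 15.9% of all genes, 1 was called positive, and the median log2 fold change was -0.80. The negative calls were 6 at an adjusted p-value under 0.01 and 9 after centring on the ribosomal protein genes. The POU factor Pou3f1 (Oct6) stood at -2.66 with an SE of 0.18 in the authors' deposited table (DESeq2 adjusted p-value 1.02e-47). Fgf5, the classical primed marker, stood at -7.17 with an SE of 0.53 in the authors' deposited table (DESeq2 adjusted p-value 6.61e-40). Its mean over all libraries was 246.4 normalized counts in the authors' deposited table, and a fold change of this size depends on the authors' fit. Foxd3 was the gene called positive, at 1.12 with an SE of 0.18 in the authors' deposited table.

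**Figure D4:**
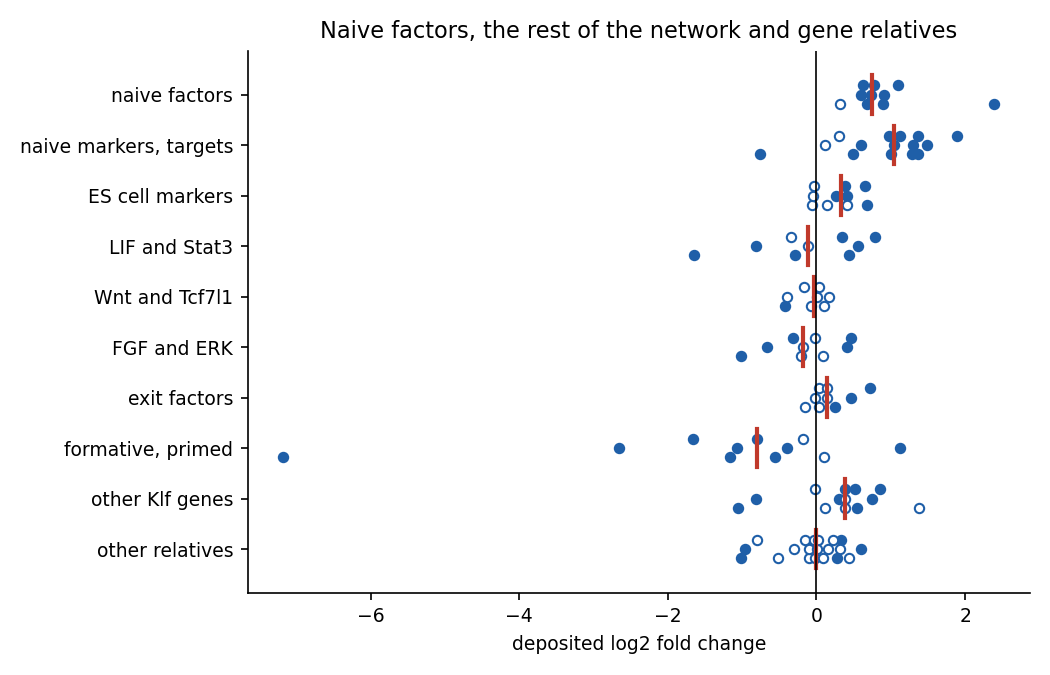
Log2 fold changes in the authors' deposited table for the naive factors, the other lists of the network and the relatives of the factors, with 1 point per gene (filled, adjusted p-value under 0.05) and a red bar at the median of each list. The naive factors (median 0.75) and naive markers (median 1.04) lie mostly to the right of 0, and formative genes (median -0.80) mostly to the left.

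Relatives of the factors give a comparison by gene family. Among the 13 other Kruppel-like genes in the authors' deposited table, 6 were called positive and 2 negative, with a median log2 fold change of 0.39. Klf8 at 0.86, Klf15 at 0.74, Klf9 at 0.55, Klf3 at 0.52, Klf12 at 0.38 and Klf13 at 0.31 were the positive ones in the authors' deposited table, with SEs from 0.080 for Klf3 to 0.30 for Klf15. Klf6 and Klf7 were called negative at -1.06 and -0.81, each with an SE of 0.13, in the authors' deposited table. The positive calls fell from 6 to 3 (Klf3, Klf8 and Klf9) both at an adjusted p-value under 0.01 and after centring on the ribosomal protein genes.

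Of 26 other relatives, 20 had a row, among T-box, Prdm, grainyhead, Yy and nuclear receptor genes. In the authors' deposited table, 3 were called positive and 2 negative, close to the shares of 14.6% and 15.9% over all genes. Their median log2 fold change there was -0.0037. The positive genes in the authors' deposited table were Grhl2 at 0.60, Prdm15 at 0.34 and Prdm10 at 0.28. Prdm9 at -0.96 and Tbx20 at -1.02 were negative, with means of 66.9 and 75.8 normalized counts in the authors' deposited table. After centring on the ribosomal protein genes, Grhl2, Prdm15 and Prdm10 lost their positive call, and Grhl3 gained a negative one. Esrra and Yy1, the close relatives of Esrrb and Zfp42, had 0.23 with an SE of 0.13 and -0.10 with an SE of 0.10 in the authors' deposited table, and neither passed.

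Markers of other cell types moved with the same comparison. Of 10 trophectoderm markers, 9 had a row, and 7 were called negative and 0 positive in the authors' deposited table. Log2 fold changes there ran from -5.82 to -0.61 over the 9 genes, with Krt19 at -4.73 and Krt8 at -4.39. Of 13 fibroblast markers, 7 had a row and 5 were called negative in the authors' deposited table, including Tagln at -5.96 and Twist1 at -2.54. The other 3 in the authors' deposited table were Acta2 at -1.95 and the defining collagen genes Col1a1 at -1.67 and Col1a2 at -4.85. Both collagen genes were scarce, at means of 20.9 and 10.1 normalized counts in the authors' deposited table. Thy1 at 0.34 with an SE of 0.43 and Pdgfrb at -0.54 with an SE of 0.37 did not pass. Of the 7 fibroblast markers, 6 had means under 100 normalized counts, the exception being Tagln at 1849. Primitive endoderm markers went both ways in the authors' deposited table, with 3 of 8 negative (Dab2 at -2.18, Col4a2 at -1.22 and Col4a1 at -1.01) and Lama1 positive at 1.91. The defining factors Gata4 and Gata6 had means of 14.7 and 9.05 normalized counts in the authors' deposited table. Among 13 two-cell-like markers, 1 had a row, Calcoco2, at 3.10 with an SE of 0.14 in the authors' deposited table, and the other 12 were not analysed here. The summed level of each list per group was not analysed here, and the part of these cell types in the fold changes of the naive factors was not tested.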

How the data were processed

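Bulk RNA was measured in 6 samples, 3 DsRed2+ and 3 DsRed2-. The labels call them biological replicates. Per the submitters' processing notes, FastQC 0.12.1, Trimmomatic 0.39, STAR 2.7.11b, RSEM 1.3.3, DESeq2 1.45.3 and GRCm39 were used, with no role or order given. Model formula, reference group and annotation release are not given in the sources used here.

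The authors' deposited table holds, per the file headers, the output of DESeq2. Its mean normalized count, a signal, is the authors' mean across libraries. The fold change and its SE were deposited on the log2 scale. The authors deposited a test statistic (a score) equal to the log2 fold change over its SE within 5.77e-07. The p-value and adjusted p-value were used as deposited. The authors' calls equalled an adjusted p-value under 0.05 with an absolute log2 fold change over 0.5, with 0 exceptions.

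A counts table was not used beyond its gene identifiers, because its 6 columns match no sample label. The planned edgeR and DESeq2 fits were therefore not run, and depth is unknown.

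From the table, 95% intervals (normal), a test against a change of 0.5 and recomputed Benjamini-Hochberg adjustments were calculated (Python 3.11.15, scipy 1.17.1). Length and GC content came from the longest GENCODE M21 transcript, matched by identifier for 16795 genes, and their joint trend was removed by loess (span 0.3, R 4.3.3). The tests and the trend removal, but not the intervals, were tried on simulated data with noise drawn from the deposited SEs. The simulated trend was in GC content only. Such data cannot show whether the deposited SEs are accurate.

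The 10 factors and the 13 comparison lists were chosen with earlier results of these data known. All factors are named, as are Pou5f1, Sox2, the 2 called genes of each list with the largest absolute statistic, and called relatives with a mean of at least 100. Counts of 5 or fewer called genes are named in full. Other genes named (Socs3, Pim1, Tcf7l1, Esrra, Yy1, Grhl3, Foxd3, Cdh1, Gbx2 and marker genes) were chosen after their values were seen. A planned gene of these lists is not reported here. Protein comparisons were planned and not made.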

Additional observations from a re-analysis of the deposited data

How the results depend on the processing

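No paired analysis was possible because no count column matches a sample, and the comparison table gives 1 value per gene. For the same reason, other normalizations, a filter on counts, the edgeR and DESeq2 fits and fits without each replicate were not run, so whether 1 library decides a value is not answered here.

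The count of 9 called factors was equal in 7 of 9 alternatives: an adjusted p-value under 0.01, the authors' limit of 0.5, a minimum mean count of 50, a recomputed adjustment, centring on all genes or on ribosomal protein genes, and a GC and length correction (the last was added for this count after seeing the data). It was 2 at a fold-change limit of 1 (5.59% of all genes) and 4 when tested against a change of 0.5 (4.34% of all genes), which the stricter criteria themselves produce. Several of the equal counts were likewise set by the main values and show no stability. No called factor had an adjusted p-value above 0.00578 or a log2 fold change under 0.596. The lowest mean was 428.3 normalized counts, and the recomputed adjustment used the same deposited p-values. The median of the factors moved by less than their median SE of 0.14 in every alternative run, the largest shift of 0.093 coming from the ribosomal protein genes. Of 90 values of single factors under these alternatives (some read per factor after seeing the data), 78 kept direction and call, 12 lost the call under those 2 stricter criteria, and 0 changed sign. Klf4 stayed without a call in all 9, at adjusted p-values from 0.144 to 1. Among the list counts, those of general stem cell markers and regulators and of both sets of relatives moved by over 1.5 times. Those not given with the results are the other relatives at an adjusted p-value under 0.01, with 1 positive and 0 negative calls. Causes of these list changes were not tested.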

Other observations

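The genes next to the factors on the chromosomes were also read, as the 2 nearest genes with a row on each side in the gene order of GENCODE M21. Of these 40 neighbours in the authors' deposited table, 9 were called positive and 6 negative, against 14.6% and 15.9% of all genes, and their median log2 fold change was 0.043. The nearest neighbours of Zfp42 were called in opposite directions in the authors' deposited table, with Triml2 at 0.89 (SE 0.17) on one side and Fat1 at -0.91 (SE 0.16) on the other. Beyond them, Gm6284 at 0.95 (SE 0.42) and AY512931 at 1.10 (SE 0.46) were positive in sign and did not pass. Slc2a3, the glucose transporter gene beside Nanog, was called negative at -0.82 with an SE of 0.19 in the authors' deposited table.

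Next to Tfcp2l1, the Hedgehog effector gene Gli2 and the activin subunit gene Inhbb had log2 fold changes of 1.15 (SE 0.086) and 1.60 (SE 0.19) in the authors' deposited table, both larger than the 0.62 of Tfcp2l1 itself. Both sides of Tbx3 held scarce transcripts with positive calls in the authors' deposited table: Gm16063 at 5.09 (SE 1.19) with a mean of 11.3 normalized counts and Tbx3os2 at 2.59 (SE 1.02) with a mean of 8.12. These genes were chosen after their values were seen.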
